A study of Mus musculus with 4 samples.

Results

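The genes examined here encode subunits of the Polycomb repressive complexes PRC1 and PRC2 and of the Polycomb deubiquitinase PR-DUB. The 32 members, given by name, were matched by symbol among 21887 protein-coding genes of a RefSeq gene table, and all 32 were found. PRC2 methylates histone H3 at lysine 27, PRC1 attaches ubiquitin to histone H2A, and PR-DUB removes that ubiquitin. Polycomb keeps developmental genes silent, and in mouse female germ cells PRC1 is known to hold back early entry into meiosis. The SWI/SNF remodelling complex opens chromatin and opposes Polycomb at many genes, and Snf5 (gene symbol Smarcb1) is one of its core subunits.

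Open chromatin was mapped by ATAC-seq, which reads where a transposase can cut DNA, in germ cells of female C57BL/6 embryos at embryonic day 15.5. Cells of both groups carried Oct4-EGFP, a green fluorescent reporter of the germline, and were sorted by it. The groups were 2 libraries of genotype control (Control 1 and Control 2) and 2 libraries of a Snf5 conditional knockout (Snf5 CKO 1 and Snf5 CKO 2). The Cre driver, the control alleles and whether each library came from a separate embryo or a pool were not stated in the labels.

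Each library had its own list of broad peaks, with 39465 and 36730 peaks in the controls and 45422 and 28625 in the knockouts. The peaks covered 27.4 and 25.2 Mb in the controls and 24.3 and 16.9 Mb in the knockouts. Read counts are not in the lists, so the depth is unknown, and a missing peak can also mean a signal under the detection limit. At Smarcb1 on chromosome 10, the gene ends carried 929 and 1139 bp of peaks in the controls and no peak in either knockout. The lists cannot tell removed DNA from closed chromatin or from a signal under the detection limit there. The missing peak thus does not show the deletion itself. All 8 germ cell markers looked up (Ddx4, Dazl, Pou5f1, Dppa3, Mael, Sycp3, Tex101 and Stra8) had a peak in every library, with a summed length of 8685 and 7800 bp in the controls and 6331 and 4830 bp in the knockouts. So did all 5 genes of ovarian supporting cells (Foxl2, Wt1, Amh, Fst and Wnt4), whose summed peak length was 7598 and 6757 bp in the controls and 4707 and 4662 bp in the knockouts. Of 4 stromal, 3 endothelial and 4 blood genes, 3, 2 and 2 had a peak in Control 1 and 3, 1 and 2 in Control 2. In Snf5 CKO 1 the numbers were 3, 1 and 2, as in Control 2, and in Snf5 CKO 2 they were 1, 1 and 1. The defining genes Cdh5, Ptprc, Hbb-bs and Pdgfra had none at their gene ends in any library, and the part of other cells in the results was not tested.

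A gene was counted as open in a library when a peak touched a window of 1 kb either side of its start or end, as the deposited list gives peaks. Lost means a peak in both controls and in neither knockout, gained the reverse, and kept a peak in all 4 libraries. With 2 libraries a group, the smallest exact two-sided permutation p is 0.333, so the members were described by values and by whether the groups overlapped. Each count of members stands beside the share of all genes that met the same rule.

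The Polycomb genes started from open chromatin and almost all stayed open. In both controls 31 of the 32 members were open, or 96.9%, against 61.3% of all genes. Of these, 30 were kept (96.8%; 89.6% of all genes open in both controls were kept), and Kdm2b alone was lost (3.23%; background 4.84%). None was gained, where 0.534% of all genes closed in both controls gained a peak. Cbx7 alone had no peak at its gene ends in any library, since its annotated start lies inside the gene model, as described with the CBX genes. The kept peaks were shorter in the knockout at 24 of 30 members, or 80%, meaning that both knockout libraries lay below both controls, against 77.3% of all kept genes. Phc1 alone was longer in both knockouts (3.33%; background 1.27%). The shares kept and shortened among the members were thus close to those of all genes.

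The promoters that the results turn on are printed here from RefSeq (GRCm38.p6, the same assembly as mm10), 5′ to 3′ in the direction of transcription, with 250 bases before and 50 after the annotated start. Capitals mark exact matches, on either strand, to any of 8 motifs: GGGCGG (GC box of Sp and Klf factors), CACGTG (E-box), TGACGTCA (cyclic AMP response element), CCGGAAGT (ETS), GCGCATGC (NRF1), TTTCCCGC (E2F), AAGATGGCG (YY1) and CNCCTCAG (the motif of STRA8, a meiotic factor). Where matches overlap or touch, the capitals run on. Both Kdm2b promoters are shown because the first lost its peak and the second kept it. The Phc1 promoter had the peak that lengthened, and at Phf19 the peak moved upstream. Cbx6, Cbx8 and Suz12 were among the most shortened.
Kdm2b most upstream start, chr5:122989050-122989349 (-): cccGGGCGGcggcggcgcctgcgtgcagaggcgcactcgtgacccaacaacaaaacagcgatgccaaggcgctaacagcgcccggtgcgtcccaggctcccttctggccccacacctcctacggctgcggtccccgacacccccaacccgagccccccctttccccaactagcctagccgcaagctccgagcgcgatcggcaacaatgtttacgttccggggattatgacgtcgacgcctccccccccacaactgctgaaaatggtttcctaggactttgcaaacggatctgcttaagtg
Kdm2b internal start, chr5:122900318-122900617 (-): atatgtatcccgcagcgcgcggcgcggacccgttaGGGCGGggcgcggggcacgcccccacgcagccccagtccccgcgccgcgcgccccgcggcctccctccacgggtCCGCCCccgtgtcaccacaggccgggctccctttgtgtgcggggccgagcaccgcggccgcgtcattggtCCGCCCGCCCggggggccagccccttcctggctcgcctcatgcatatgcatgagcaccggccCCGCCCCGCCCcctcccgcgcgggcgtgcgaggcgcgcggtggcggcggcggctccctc
Phc1, chr6:122340178-122340477 (-): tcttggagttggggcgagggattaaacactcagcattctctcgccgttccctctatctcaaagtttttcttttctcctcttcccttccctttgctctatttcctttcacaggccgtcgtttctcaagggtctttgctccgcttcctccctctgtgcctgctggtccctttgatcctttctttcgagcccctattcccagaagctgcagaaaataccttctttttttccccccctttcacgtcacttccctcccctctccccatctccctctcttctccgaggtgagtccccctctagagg
Phf19, chr2:34913927-34914226 (-): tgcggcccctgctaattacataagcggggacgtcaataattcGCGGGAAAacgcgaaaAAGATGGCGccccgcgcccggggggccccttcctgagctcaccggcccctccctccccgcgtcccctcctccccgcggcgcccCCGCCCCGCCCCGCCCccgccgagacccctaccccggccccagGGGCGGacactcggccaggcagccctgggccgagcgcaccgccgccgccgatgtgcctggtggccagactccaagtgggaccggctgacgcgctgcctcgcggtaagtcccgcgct
Cbx6, chr15:79834284-79834583 (-): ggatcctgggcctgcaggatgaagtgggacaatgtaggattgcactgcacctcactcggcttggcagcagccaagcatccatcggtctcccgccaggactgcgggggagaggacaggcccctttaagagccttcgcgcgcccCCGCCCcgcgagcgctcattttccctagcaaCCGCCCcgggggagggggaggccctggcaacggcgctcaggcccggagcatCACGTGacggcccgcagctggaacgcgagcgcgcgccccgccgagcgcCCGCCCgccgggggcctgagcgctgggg
Cbx8, chr11:119040864-119041163 (-): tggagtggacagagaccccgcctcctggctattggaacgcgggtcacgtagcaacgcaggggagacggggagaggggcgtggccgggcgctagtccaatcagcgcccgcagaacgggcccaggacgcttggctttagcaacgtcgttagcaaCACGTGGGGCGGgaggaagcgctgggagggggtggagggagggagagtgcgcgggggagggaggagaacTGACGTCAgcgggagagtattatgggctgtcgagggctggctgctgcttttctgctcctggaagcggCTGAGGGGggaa
Suz12, chr11:79992856-79993155 (+): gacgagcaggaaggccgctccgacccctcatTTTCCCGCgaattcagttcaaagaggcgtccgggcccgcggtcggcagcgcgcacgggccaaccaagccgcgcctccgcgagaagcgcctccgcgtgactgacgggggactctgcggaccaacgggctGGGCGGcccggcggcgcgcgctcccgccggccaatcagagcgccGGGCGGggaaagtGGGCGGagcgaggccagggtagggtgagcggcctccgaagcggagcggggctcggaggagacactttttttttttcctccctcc
The Phc1 promoter held none of the 8 motifs, and the internal Kdm2b promoter held 6 GC boxes against 1 at the most upstream start. Promoter sequence was matched for 27 members with 39 annotated starts, and Pcgf1, Rybp, Epop, Cbx2 and Yaf2 had none in the table.

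The peak lengths at the gene ends set the members out by library.

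**Figure D1:**
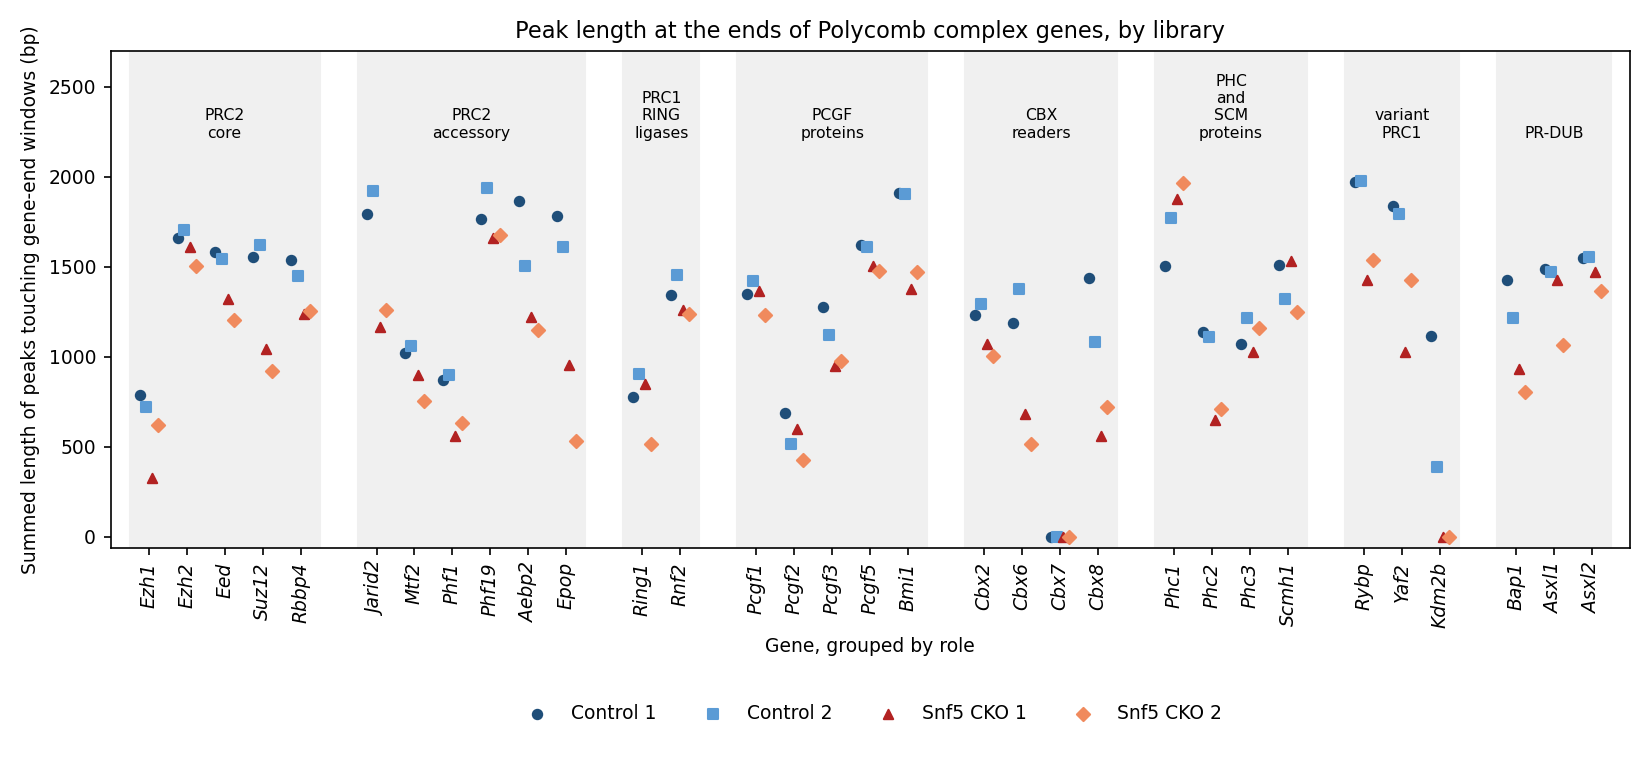
Summed length in bp (vertical axis, from 0) of the peaks touching the gene-end windows of each of the 32 genes, grouped by role, with 1 point for each of the 4 libraries. The control points (blue) lie above the knockout points (red and orange) at 24 genes, Phc1 is the reverse, Kdm2b falls to 0 in both knockouts and Cbx7 is at 0 in all 4 libraries.

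Among the 5 genes of the PRC2 core, all were kept and all were shorter in both knockouts, with a median log2 ratio of mean length (knockout over control) of -0.31. Ezh2, the main H3K27 methyltransferase, changed least of the 5, with 1660 and 1707 bp in the controls and 1610 and 1505 bp in the knockouts. Its log2 ratio was -0.11 (SE 0.053 over 2 and 2 libraries), and the groups did not overlap. Ezh1, the second methyltransferase of the complex, had short peaks of 786 and 722 bp in the controls and 325 and 623 bp in the knockouts. Its log2 ratio of -0.67 had an SE of 0.47, because the knockout libraries differed from each other by more than the group means did.

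Suz12, the scaffold subunit of PRC2, had 1552 and 1622 bp in the controls and 1044 and 920 bp in the knockouts (log2 ratio -0.69, SE 0.097). Eed, which binds trimethylated H3K27, had 1582 and 1546 bp against 1319 and 1202 bp (-0.31, SE 0.069). Rbbp4, a histone-binding subunit that PRC2 shares with other complexes, had 1536 and 1450 bp against 1237 and 1257 bp (-0.26). All 3 lost length without overlap between the groups, and Suz12 lost the most of the core.

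All 6 PRC2 accessory genes were kept and shorter, with a median log2 ratio of -0.54. Epop, which links PRC2 to elongin, had the lowest ratio of the 30 kept members at -1.19 (SE 0.43). Its peaks spanned 1782 and 1609 bp in the controls and 957 and 531 bp in the knockouts. Jarid2, a cofactor that helps recruit PRC2, went from 1793 and 1920 bp to 1167 and 1261 bp (-0.61). Phf1 (-0.57), Mtf2 (-0.33) and Phf19 (-0.15), the 3 Polycomb-like proteins that guide PRC2 to CpG islands, and the DNA-binding cofactor Aebp2 (-0.51) made up the rest.

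The PRC1 genes were less uniform. Of the 2 RING ligases, which ubiquitinate H2A, Rnf2 was shorter, with 1342 and 1455 bp in the controls and 1259 and 1239 bp in the knockouts (-0.16). Ring1 overlapped, with 779 and 907 bp against 851 and 518 bp (-0.30, SE 0.37). Snf5 CKO 1 lay between the 2 controls at Ring1, so its ratio rests on Snf5 CKO 2.

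The PCGF proteins pair with the RING ligases and define the PRC1 variants, and 3 of the 5 genes were shorter. Bmi1, which is Pcgf4 by another name, went from 1912 and 1905 bp to 1378 and 1471 bp (-0.42). Pcgf3 (-0.32) and Pcgf5 (-0.12) were shorter too. Pcgf1 overlapped at 1350 and 1421 bp against 1368 and 1233 bp (-0.09). Pcgf2 also overlapped at 687 and 515 bp against 601 and 429 bp (-0.22). Cisd3 and Psmb3 lay in the gene-end windows of Pcgf2, counted over both ends. At its own annotated start, which lies inside the gene model as at Cbx7, Pcgf2 behaved otherwise, as given with the starts.

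The CBX genes encode chromodomain proteins that read H3K27 methylation, and the 3 that were kept were all shorter, with a median log2 ratio of -0.98. Cbx6 went from 1188 and 1376 bp to 682 and 517 bp (-1.10, SE 0.23). Cbx8 went from 1438 and 1081 bp to 561 and 719 bp (-0.98, SE 0.27). Part of the Cbx8 total in Control 1 was a separate peak at the 3′ end, and at its start alone the lengths were 1125 and 1081 bp against 561 and 719 bp (-0.79). The loss was milder at Cbx2, whose protein compacts nucleosomes, with 1233 and 1295 bp against 1071 and 1005 bp (-0.28). Cbx7, the main CBX protein of mouse embryonic stem cells, was closed at both ends of its gene model. At its annotated start, inside the model, it had 1461 and 1747 bp in the controls and 992 and 977 bp in the knockouts (-0.70), so it too had a shorter peak there.

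PHC and SCM proteins carry the SAM domains through which PRC1 forms chains, and 3 of the 6 kept members that were not shorter had this role. Phc1 was longer, with 1505 and 1771 bp in the controls and 1878 and 1965 bp in the knockouts (+0.23, SE 0.12). Phc2 fell from 1140 and 1112 bp to 651 and 708 bp (-0.73, SE 0.063), so the paralogs Phc1 and Phc2 went in opposite directions without overlap in either. Phc3 overlapped at 1073 and 1213 bp against 1027 and 1158 bp (-0.07). Scmh1 overlapped at 1510 and 1323 bp against 1532 and 1248 bp (-0.03). The 3 highest ratios of the 30 members were those of Phc1, Scmh1 and Phc3, followed by Pcgf1.

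Rybp and Yaf2 belong to variant PRC1, in which they take the place of a CBX protein. Rybp went from 1972 and 1975 bp to 1429 and 1536 bp (-0.41), and Yaf2 from 1838 and 1793 bp to 1028 and 1425 bp (-0.57). The 3 PR-DUB genes were kept and shorter. Bap1, the deubiquitinase itself, went from 1426 and 1216 bp to 932 and 802 bp (-0.61, SE 0.16). Its activating partners Asxl1 (-0.25) and Asxl2 (-0.13) were less reduced.

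Over the 30 kept members the median log2 ratio was -0.31, with quartiles of -0.60 and -0.15, and 29 ratios were below 0. Over all 12030 kept genes the median was -0.41. The members had longer peaks than other genes to begin with, with median lengths of 1496.5 and 1452.5 bp in the controls against 1171 and 1151 bp over all kept genes. In the knockouts the members' medians were 1119 and 1154 bp, and those of all kept genes 882.5 and 826 bp. The members' smaller median loss was thus relative to a longer peak, and no test of that difference was made. In 10 members another protein-coding gene lay in a gene-end window, among them Ezh1, Rbbp4, Jarid2, Bmi1, Phc1 and Bap1. The count takes both ends together, and only a peak in the shared window itself cannot be assigned to 1 gene. At Phc1 the shared window is that of the 3′ end, which had no peak. Among the 22 members with no such neighbour, 17 of the 21 kept ones were shorter and none was longer, with a median log2 ratio of -0.30.

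**Figure D2:**
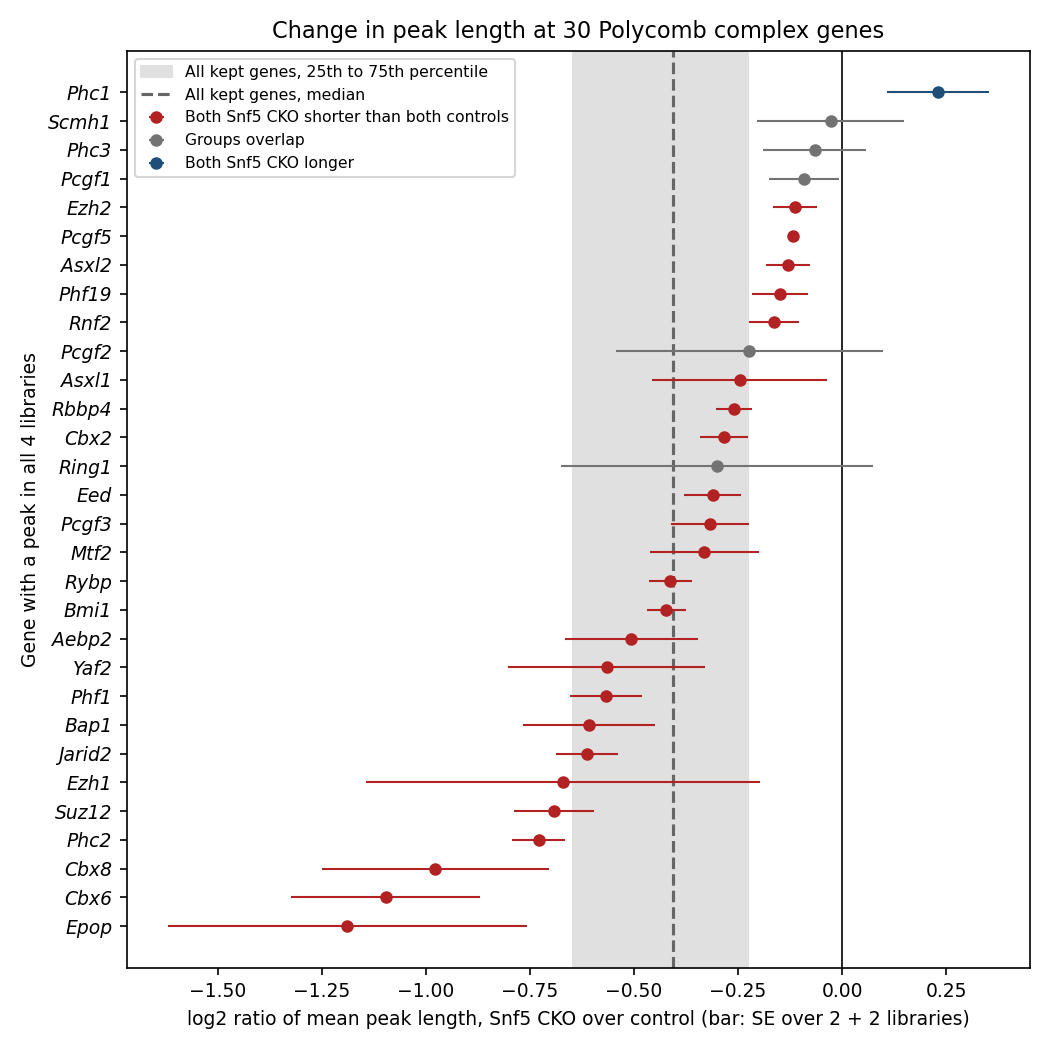
The log2 ratio of mean peak length, knockout over control, for the 30 members kept at their gene ends (points, with bars of 1 SE over 2 and 2 libraries), beside the median (dashed) and the 25th to 75th percentile (grey) of all 12030 kept genes. Epop, Cbx6 and Cbx8 lie furthest to the left at -1.19, -1.10 and -0.98, and Phc1 alone lies right of 0, at 0.23.

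Kdm2b encodes the CpG-binding protein that brings variant PRC1 with Pcgf1 to CpG islands. It is known to make a long form with a demethylase domain and a short form that keeps the CpG-binding domain. At its gene end Kdm2b had 1114 bp of peaks in Control 1, 387 bp in Control 2 and none in either knockout. The control peaks over the most upstream start, chr5:122989013-122989457, were weak, with -log10 q of 2.48 and 3.52 in the authors' lists. With a minimum of 3 in every library the call was no longer made. The internal start at position 122900367 was open in all 4 libraries, with 1616 and 1417 bp in the controls and 1058 and 1241 bp in the knockouts (-0.40). The peak was therefore lost at the upstream starts and only shortened at the internal one.

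Kdm2b also had the most regions of any member. Across the gene and 10 kb either side it held 13, of which 3 were kept, 3 lost and 7 mixed. The other lost ones lay in the gene body at chr5:122880094-122880657 and chr5:122928478-122928827, with 564 and 200 bp and with 345 and 220 bp in the controls. Another intragenic region, chr5:122951316-122952773, was kept but fell from 1458 and 1237 bp to 251 and 607 bp. A short region upstream of the gene, chr5:122994417-122995033, was kept at 267 and 209 bp in the controls and at 617 and 285 bp in the knockouts, so it alone of the 3 kept regions was longer in both knockouts.

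The annotated starts gave a closer view of 27 members than the gene ends. Of their 39 starts, 34 had a peak in both controls. Of these, 31 kept it and 3 lost it, or 8.82%, against 4.34% lost over all annotated starts. The lost starts were both upstream starts of Kdm2b and the start of Pcgf2 on chromosome 11 at position 97699648. The 2 Kdm2b starts were touched by the same peaks, so they are 1 loss. By most upstream start 2 of 27 members lost the peak, or 7.41%, against 4.01% over all genes. The Pcgf2 start lies inside the gene model, whose upstream end is at -2786 bp from it and kept its peak. At this start the controls had 240 and 377 bp upstream, and the knockouts had none. These control peaks were weak, with authors' folds of 2.21 and 2.91 and -log10 q of 1.98 and 3.89. No peak covered the 300 bases of the Pcgf2 promoter itself in any library. Internal starts of Aebp2, Pcgf5, Phc2 and Scmh1, 1 each, had no peak in any library.

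Of the 5 starts closed in both controls 1 was gained, where 0.558% of all such starts were. It was an internal start of Mtf2 at position 108078165 on chromosome 5. No control had a peak there, and the knockouts had 635 and 418 bp at chr5:108076817-108077451. That peak lay upstream of the start and did not reach its 300-base promoter. The main Mtf2 start kept its peak with 1020 and 1058 bp against 899 and 753 bp.

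**Figure D3:**
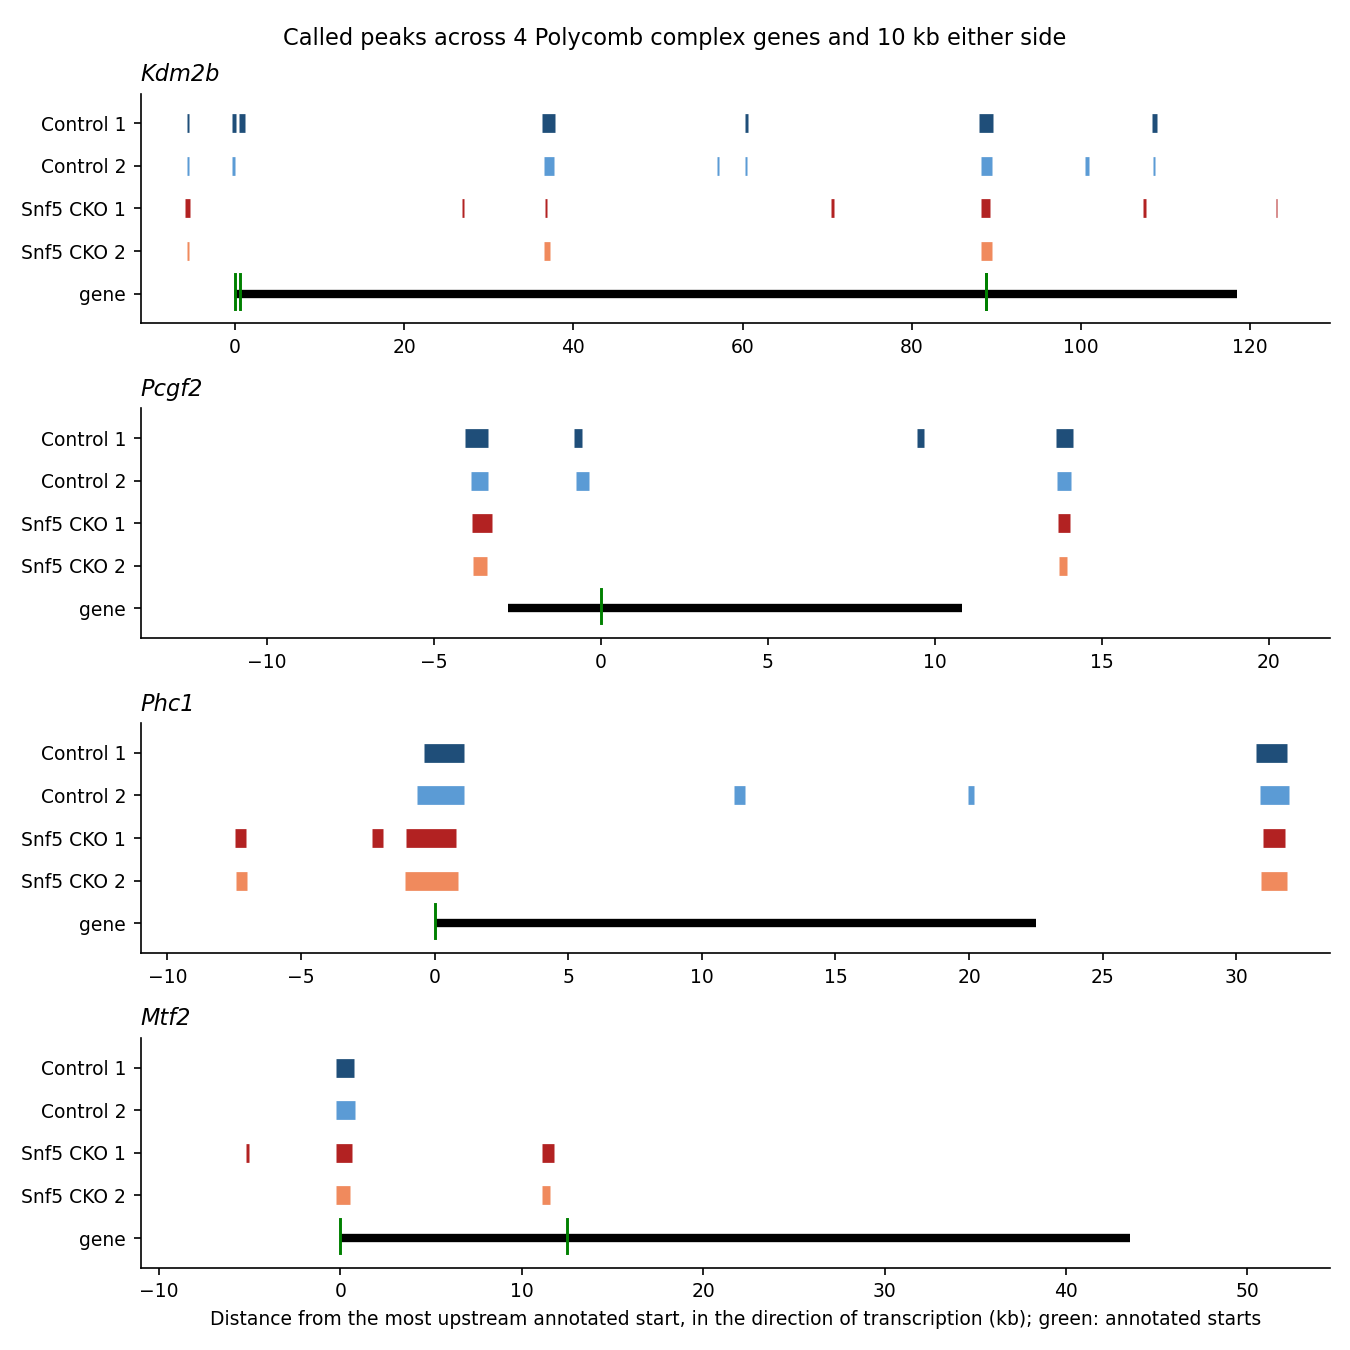
Called peaks (bars) in each of the 4 libraries across Kdm2b, Pcgf2, Phc1 and Mtf2 and 10 kb either side, against distance in kb from the most upstream annotated start in the direction of transcription. The gene is black and its annotated starts are green. Kdm2b and Pcgf2 lack peaks near their most upstream annotated start in both knockouts, and that start lies inside the gene model at Pcgf2. Phc1 and Mtf2 each have a region found in both knockouts and in neither control.

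At 24 members the most upstream annotated start lay inside a peak in all 4 libraries, so the peak could be split into a part upstream of the start and a part downstream. The downstream part was shorter in both knockouts at 20 of the 24, or 83.3%, against 72.7% of all genes, and longer at 0 (background 1.8%). The upstream part was shorter at 16 of the 24, or 66.7%, against 56.3% of all genes. It was longer at 4, or 16.7%, against 4.43% of all genes, and these were Phc1, Phf19, Scmh1 and Mtf2. These measures were chosen after the data were seen, and no test was made of the difference from other genes.

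Phf19 showed the clearest shift of position. Downstream of its start the peak reached 1083 and 880 bp in the controls but 64 and 116 bp in the knockouts. Upstream it reached 683 and 1056 bp in the controls and 1597 and 1561 bp in the knockouts. The summed length fell little, from 1766 and 1936 bp to 1661 and 1677 bp without overlap, so the Phf19 peak was displaced upstream as well as slightly shorter. The shortening depended on the measure, since the groups overlapped when only bases inside the windows were counted (log2 ratio -0.03). The Phf19 gene model itself reaches to -377 bp from this start.

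Phc1 went the same way to a lesser degree. Its upstream part grew from 402 and 661 bp to 1059 and 1102 bp, while its downstream part went from 1103 and 1110 bp to 819 and 863 bp. At Scmh1 the upstream part was 576 and 621 bp in the controls and 1008 and 642 bp in the knockouts, a change carried by Snf5 CKO 1. At Mtf2 the upstream parts differed by little, with 242 and 244 bp against 256 and 245 bp. Of the 4, Phf19 and Phc1 therefore had upstream growth in both knockouts that exceeded the spread between libraries.

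Jarid2 and Suz12 show the opposite and the common pattern. At Jarid2 the loss was upstream, with 1176 and 1306 bp against 561 and 650 bp, while the downstream part was 617 and 614 bp in the controls and 606 and 611 bp in the knockouts. In Snf5 CKO 2 the Jarid2 length was the sum of 2 peaks, from -1079 to -814 bp and from -384 to 610 bp. At Suz12 the downstream part fell from 879 and 967 bp to 487 and 355 bp, and the upstream part from 673 and 655 bp to 557 and 565 bp. The Cbx8 peak shortened mainly upstream, from 836 and 834 bp to 434 and 457 bp. At Aebp2 no peak covered the promoter of the first start, and the nearest peak lay wholly downstream of it.

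**Figure D4:**
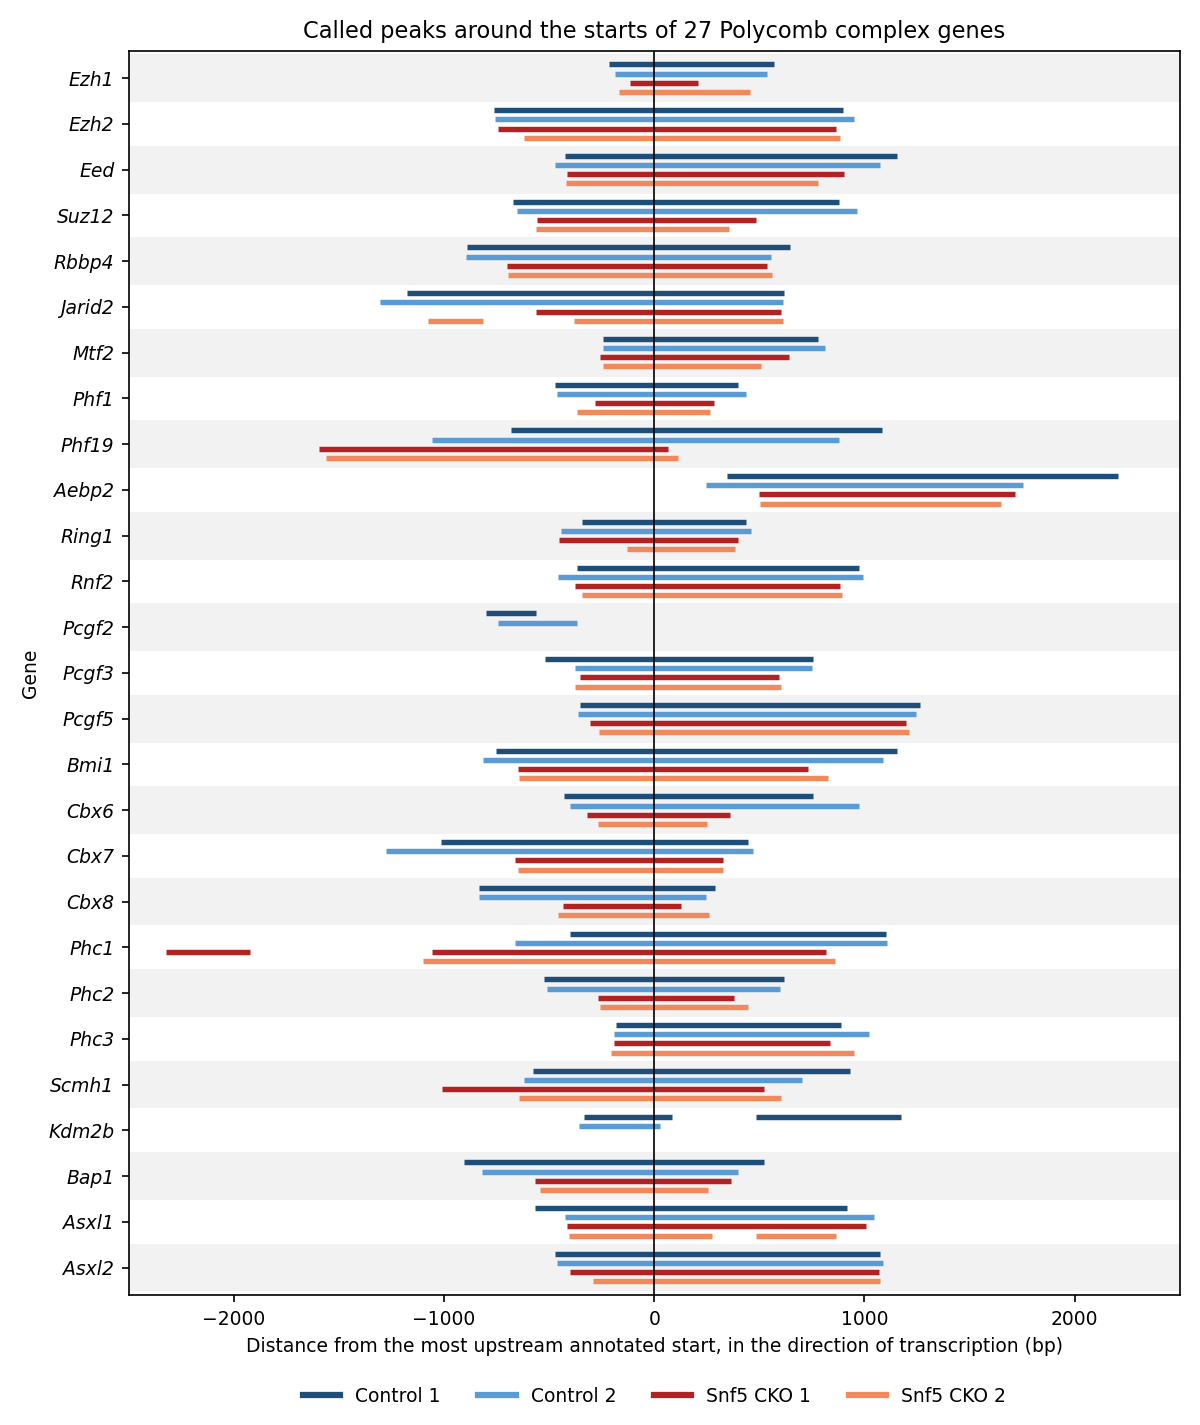
Called peaks (bars, 1 row per library) around the most upstream annotated start of 27 members, against distance in bp in the direction of transcription. Knockout bars (red and orange) are shorter than control bars (blue) on the downstream side of 20 starts, the Phf19 bars are displaced upstream, and Pcgf2 and Kdm2b have no knockout bar.

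Accessible regions around the genes were counted by merging the 4 lists. Within the members and 10 kb either side lay 115 regions. Of these, 55 were kept, or 47.8% (29.4% of all merged regions), 9 were lost, or 7.83% (7.58% of all), and 2 were gained, or 1.74% (5.08% of all). The remaining 49, or 42.6%, were mixed, and of the mixed ones 19 were found only in Snf5 CKO 1, 15 only in Control 1 and 10 only in Control 2. No region was found only in Snf5 CKO 2. The share lost was thus near that of all regions, and the share gained lay below it. The kept regions included 29 at gene ends, 12 in gene bodies and 14 in the flanks, while the lost ones lay at 1 gene end, in 5 gene bodies and in 3 flanks. The kept region over the Cbx8 start, chr11:119040625-119041749, is among the 14, because it was placed as a flank of Cbx2.

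The lost regions lay in 7 members or within 10 kb of them, which does not assign a region to the member. The strongest by its weaker authors' fold was chr12:3512819-3513857, in the flank beyond the 3′ end of Asxl2, with 1039 and 700 bp in the controls at folds of 3.90 and 3.52. The region chr6:83087247-83088243 in the flank of Pcgf1 had 530 and 997 bp, and Lbx2 and Tlx2 also lie within 10 kb of Pcgf1. An intragenic region of Jarid2, chr13:44811480-44811826, had 200 and 347 bp, and one of Pcgf5, chr19:36357320-36357970, had 651 and 406 bp. The others were the 3 in Kdm2b, the one at Pcgf2 and a region upstream of Cbx8, chr11:119047893-119048311, with 213 and 224 bp. Apart from those of Asxl2 and Pcgf1, none of the 9 exceeded 651 bp in a control, where the median control peak of the lists was 578 and 560 bp.

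The gained regions were the one in Mtf2 and chr6:122347253-122347693, upstream of the Phc1 start. The Phc1 region had 425 and 406 bp in the knockouts, at authors' folds of 6.89 and 5.98, and no peak in either control. Its centre lay upstream, at -7246 bp from the same start whose peak had extended upstream. The Mtf2 region had folds of 5.13 and 3.49.

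Several intragenic and flanking regions were kept with little change or with a large one. The strongest distal region by fold was in Jarid2 at chr13:44869481-44870121, with 613 and 641 bp in the controls and 633 and 617 bp in the knockouts, and its groups overlapped. A region in Phf19 at chr2:34904819-34905650 had 813 and 685 bp against 728 and 696 bp, which also overlapped. In the flank of Bmi1, chr2:18688676-18690557 went from 1871 and 1831 bp to 674 and 772 bp. Commd3, Gm46725 and Spag6 lie within 10 kb of Bmi1, so that region cannot be assigned to Bmi1 alone. Distal regions beside members of the list thus included ones that hardly moved and ones that lost over 1000 bp.

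Summed over the gene and 10 kb either side, 25 of the 32 members had fewer bases in peaks in both knockouts, against 67.4% of all genes with a peak in every library. The median log2 ratio was -0.55, beside -0.45 over those 15295 genes. Cbx8 (-1.32), Epop (-0.97), Pcgf1 (-0.92), Suz12 (-0.92) and Kdm2b (-0.92) had the lowest ratios. Mtf2 alone had more in both knockouts (0.48), where 3.11% of all those genes did, so 1 of 32 is near the background. For 22 members another gene lay within 10 kb, so these sums can include a neighbour's regions. At the 3′ ends of the 27 members with a known strand, 26 had no peak in any library, and the exception was the Cbx8 peak of Control 1.

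Within each list the members' gene-end peaks ranked by their median above the middle of all peaks. The rank is by the authors' fold enrichment, which is used here only to rank peaks within 1 library. Their median fold was 4.48 and 4.32 in the controls and 4.83 and 4.81 in the knockouts, at median percentiles of 70.4, 65.2, 69.9 and 62.8. The lowest members were at percentiles of 8.79, 4.17, 26.6 and 14.5. A list also holds peaks away from gene ends, and the gene-end peaks of other genes were not ranked, so this is not a trait shown to be particular to the members. In Control 1 and Control 2 the highest member was Ezh1, with folds of 7.02 and 5.74. In Snf5 CKO 1 it was Cbx8 at 8.67, and in Snf5 CKO 2 Phc2 at 7.68. The leading gene by fold thus differed between the control lists and the knockout lists.

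The members' promoters were rich in CpG. Over the 27 most upstream starts the median GC content was 66.3% and the median ratio of observed to expected CpG 0.83, against 56.3% and 0.58 over 17492 promoters. The GC box was found in 21 of 27 (77.8%; 46.3% of all promoters). Among the 22 members whose promoters had at least 55% GC and a CpG ratio of at least 0.6 it was found in 19, and that share was close to that of all such promoters (86.4% against 79.8%). The E-box CACGTG was found in 9 of 27 (33.3%; 7.91% of all), and in 8 of the 22 CpG-rich ones (36.4%; 11.8% of all such promoters). The 9 genes were Asxl2, Bap1, Bmi1, Cbx6, Cbx8, Pcgf2, Phc2, Phc3 and Rbbp4.

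The other motifs were rarer. The STRA8 motif was found in the promoters of Bap1, Cbx8, Rbbp4 and Scmh1 (14.8%; 8.57% of all), E2F in Phf19 and Suz12 (7.41%; 1.46% of all), YY1 in Phf19 and Phc3 (7.41%; 1.92% of all) and NRF1 in Pcgf3 and Phc3 (7.41%; 3.61% of all). The cyclic AMP response element was in Cbx8 alone (3.70%; 2.33% of all) and ETS in Asxl2 alone (3.70%; 5.28% of all). A match is a description of the letters, not a bound site.

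Genes that work with or against the members were looked up as well. Of 34 other Polycomb subunits and partners, 32 were open in both controls and 29 kept, 27 of the 29 were shorter (77.3% of all kept genes were), and the median log2 ratio was -0.54 (-0.41 over all kept genes). Bcorl1, a partner of variant PRC1 with Pcgf1, was lost (581 and 710 bp in the controls, at authors' folds of 2.27 and 2.23). Sfmbt2, an MBT-domain protein, was lost too (282 and 249 bp, at folds of 2.58 and 2.38). The median folds of the control lists were 3.86 and 3.91, so these peaks were weak. The 2 lost of 32 stand beside 4.84% lost over all genes open in both controls. Bcor, the close relative of Bcorl1, kept 200 bp in Snf5 CKO 2 alone, from 989 and 921 bp in the controls.

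Of the 4 erasers of H3K27 methylation and H2A ubiquitin, Kdm6a, Usp16 and Mysm1 were kept, 2 of them shorter. Kdm6b had no peak at its gene ends in any library, and peaks inside that gene were not looked up. Among 12 Trithorax genes, whose H3K4 methyltransferases counter Polycomb, 11 were open in both controls, 10 kept and 8 shorter, with a median log2 ratio of -0.51. Setd1b, a methyltransferase gene, was lost from 1046 and 480 bp, at weak folds of 2.63 and 2.51. It was 1 of 11, beside 4.84% lost over all genes open in both controls. The 8 of 10 Trithorax genes with shorter peaks were thus close to the 77.3% of all kept genes.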

How the data were processed

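The authors deposited 1 list of broad peaks per library. Per the submitters' processing notes the tools were MACS2 2.2.7.1, Bowtie2 2.4.2, Picard 2.25.2, Trim Galore 0.6.5 and SAMtools 1.10, with build mm10. Settings, thresholds and any shift for the transposase offset were not stated there. Each deposited peak has a score, a fold enrichment ratio and -log10 values of p and q, which in this format are means over the peak, so a wider peak may dilute them. Replicates were not pooled. The reads were 50 bp long, per the labels.

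From the lists, peaks touching windows of 1 kb at gene ends by at least 1 bp were summed per library with Python 3.11.15 and NumPy 2.4.6, and figures were drawn with Matplotlib 3.10.9. The SE of a log2 ratio came from the SDs of the log2 lengths in each group. Regions were peaks of the 4 lists merged by overlap. The calling code was checked on simulated lists in which the libraries of a group had identical peaks. That check cannot give error rates for libraries that vary. Full values are given for members not open everywhere, the PRC2 core, the ligases, Bap1, and the lowest, highest and overlapping ratios. The members and lists were chosen with earlier results of these data known, and motifs and starts after seeing the data. P-values from the lists were not used.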

Additional observations from a re-analysis of the deposited data

How the results depend on the processing

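The lists limit what can be said: there are 2 libraries a group, no read depth, and Snf5 CKO 2 has the fewest peaks. Across window sizes, a stricter q, lists cut to the shortest, covered bases, merged regions and annotated starts, 21 to 24 members were shorter, out of 26 to 30 with a length, and the median log2 ratio ran from -0.32 to -0.31. Leaving out 1 library gave 25 to 28 shorter, 1 to 2 longer and medians of -0.37 to -0.26. Scmh1 was the second longer gene without Snf5 CKO 2. The same libraries left out gave 9 to 24 lost and 2 to 21 gained regions, namely 19 losses if Control 1 was dropped, 24 if Control 2 was, and 21 gains if Snf5 CKO 2 was.

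The loss of Kdm2b was not called (0 members lost) with -log10 q of at least 3, with lists cut to the shortest, or with 500 bp of the window covered. With annotated starts only, the 1 lost gene was Pcgf2 in its place, and 2 genes were longer, as Mtf2 turned from shorter to longer (0.38), its gained start being included. With no neighbour in the windows, an alternative chosen after seeing the data, 0 members were longer, since Phc1 is not among them. Lost regions numbered 3 with the stricter q and 3 with the cut lists, and gained ones 1 with the stricter q and 1 in gene bodies only, which leave out flanks. Where the cause is not shown by the setting, the cause was not tested.

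The replicate numbers are shared by the groups, but nothing says that they pair libraries. Comparing same-numbered libraries as a replicate block gave 26 members shorter and 1 longer. Over 12030 kept genes the deviations of same-numbered libraries had a correlation of -0.0138, so no pairing was used.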
